A study of Mus musculus with 6 samples.

Results

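The 46 genes described here build and serve the cilium. None of them passed the test between mouse libraries labelled as lacking 2 miR-124a genes and their controls, where 0.0227% of tested rows did. They were taken by symbol from the 24346 gene rows of each of 6 deposited files: 14 rows named Ift with a number, 8 rows named Bbs with a number, and 24 further genes chosen by name for roles in photoreceptor cilia or ciliopathies. The rule uses symbols and no measured value, although earlier results of these data were known when it was written. All 24 named genes had a row. Brains at embryonic day 17.5 were the labelled tissue. In 3 libraries the genotype is given as miR-124a-1/2 DKO, a double knockout of these microRNA genes. In the 3 control libraries it is given as miR-124a-1+/-, so the controls carry 1 mutant allele of miR-124a-1 and are not wild type. Neither strain, sex, litter nor pooling of embryos is given, and p-values measure only the spread between these libraries.

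A primary cilium is a microtubule rod that grows from a basal body and carries receptors in its membrane. The outer segment of a rod or cone is such a cilium, enlarged and filled with discs, and its narrow connecting cilium corresponds to the transition zone of other cells. Intraflagellar transport (IFT) trains carry cargo along the axoneme, with kinesin-2 driving them outward and dynein-2 back. The BBSome, a coat-like complex, takes membrane proteins out of the cilium, and small GTPases with lipid-binding carriers bring lipidated proteins in. Mutations in many of these genes cause retinal degeneration, alone or with kidney, skeletal or brain disease.

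The levels of marker genes went against the labelled tissue in both groups, so groups are named here only by their labels. Values are FPKM, that is fragments scaled to transcript length and to the size of the library, which allows levels of different genes to be compared. The rod marker Sag, which encodes arrestin, lay at 2841 to 3594 FPKM over the 6 libraries. Of 12 markers of multiciliated cells such as ependyma, 9 stayed under 1 FPKM in every library. Emx1, a marker of cortical neurons, was listed at 0 in all 6, and the dividing-cell marker Mki67 lay at 0.0765 to 0.262 FPKM. The host transcript of miR-124a-1, Mir124a-1hg, measured 464 to 510 FPKM in the libraries labelled DKO and 420 to 528 in the libraries labelled control. The host of miR-124a-2 (listed as 2610100L16Rik) measured 69.9 to 98.0 and 80.3 to 115 FPKM. These host transcripts do not show a loss under the DKO label. The rows of the microRNA genes themselves, Mir124a-1, Mir124a-2 and Mir124a-3, were listed at 0 in all 6 libraries, so their loss could not be read. FPKM values carry no read totals, but relative depths of 0.956 to 1.24 could be read from the spacing of the smallest values. Short RNA rows made up 6.36% of the sum in control replicate 3 and 1.76% to 3.13% in the others.

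Promoter sequences are shown for the members that held a word known from ciliary or photoreceptor genes. RefSeq promoters (GRCm38.p6, 250 bases before to 50 after a start) were found for 41 of the 46 members, 50 promoters in all. The X-box, an inverted repeat bound by RFX transcription factors and known from ciliary genes, was searched as GTTNCC and GGNAAC on 1 strand with 2 bases between them, a pattern that reads the same on both strands. It matched promoters of 3 of the 41 members, or 7.32%, against 0.529% of 27025 genes with a promoter and 0.651% of 9983 tested genes with one. They were Ahi1, a transition zone scaffold, Bbs7, a BBSome subunit, and Mks1, a transition zone protein. Each is printed 5′ to 3′ on the gene's strand with the matched letters in capitals.
Ahi1, chr10:20952543-20952596, plus strand: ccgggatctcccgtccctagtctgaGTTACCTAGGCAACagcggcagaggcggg
Bbs7, chr3:36613472-36613535, minus strand: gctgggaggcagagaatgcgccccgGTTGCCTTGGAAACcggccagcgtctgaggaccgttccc
Mks1, chr11:87853166-87853229, plus strand: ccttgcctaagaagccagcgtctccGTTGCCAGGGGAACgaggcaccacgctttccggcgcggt

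The matches began at positions 22, -121 and -24 from the RefSeq starts of Ahi1, Bbs7 and Mks1. The shorter word GTTGCCA, which covers 1 arm of the repeat and overlaps the match in Mks1, was found in either direction in Bbs1, Ift27, Ift88, Mks1 and Nphp4, or 12.2% of the 41 members against 5.02% of all genes. A word match is a description of the letters, not of a bound site.

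The word TAATCC, the core bound by CRX and related homeodomain factors of photoreceptors, was found in either direction in 4 of the 41 members. That share of 9.76% was close to the 8.14% of all genes and 7.17% of tested genes. The members were Unc119, Rpgrip1, Mak and Bbs1, shown here because the first pair had the highest levels of all 46 members. They were thus chosen with the levels in view, and a link between word and level was not tested. Capitals mark the word, which reads GGATTA where it lies on the opposite strand.
Unc119, chr11:78345441-78345496, plus strand: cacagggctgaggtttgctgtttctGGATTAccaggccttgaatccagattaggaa
Rpgrip1, chr14:52110850-52110905, plus strand: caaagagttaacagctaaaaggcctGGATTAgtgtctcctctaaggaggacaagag
Mak, chr13:41070653-41070708, minus strand: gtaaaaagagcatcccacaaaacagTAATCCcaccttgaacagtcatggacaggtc
Bbs1, chr19:4906794-4906849, minus strand: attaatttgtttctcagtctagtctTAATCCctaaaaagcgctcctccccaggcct

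The matches began at positions -118, -28, -218 and -197 from the RefSeq starts of Unc119, Rpgrip1, Mak and Bbs1. The starts of Unc119 and Mak lie inside the GENCODE bounds of these genes, not near their 5′ ends.

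A search for the site of the microRNA that the labels name found it in 1 of the 46 members. The 7-base word GTGCCTT, which pairs with bases 2 to 8 of miR-124-3p, was looked for in every annotated 3' UTR of their protein-coding transcripts in GENCODE M21, 114 in all. It was present in 2.17% of the members, against 17.2% of 12163 tested genes with a 3' UTR. The longest 3' UTR of a member had a median of 611 bases, against 1258 bases over all those genes. Among the 3435 tested genes whose longest 3' UTR had no more than 611 bases, 5.09% held the word. That set is not matched in length to the members, whose longest 3' UTRs ran up to 3794 bases. The 1 member was Ift140, in a transcript that does not have the gene's longest 3' UTR; its site is printed with the word in capitals.
Ift140, chr17:25099393-25099422, GRCm38, plus strand: ccctaagaactGTGCCTTttttcaccaagt

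Ift140, a subunit of the IFT-A complex (chr17:25016085-25099495), measured 12.6, 12.8 and 14.0 FPKM in the libraries labelled DKO and 12.8, 12.8 and 12.6 FPKM in the libraries labelled control. The groups overlapped, and limma gave a 95% confidence interval of the log2 fold change from -0.10 to 0.18 (Benjamini-Hochberg adjusted p = 0.920).

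Cilium genes were expressed above the typical gene. All 46 had a mean of at least 1 FPKM over the 6 libraries and entered the test with 13215 rows in all. Their median level was 25.1 FPKM against 12.6 FPKM over the tested rows, and 36 of the 46 lay above the median row. Only 3 members reached 100 FPKM, 35 lay from 10 to 100 FPKM, and 8 lay below 10 FPKM. Unc119 alone made up 39.0% of the members' summed FPKM. The members' sum without Unc119 was 1486 to 1622 FPKM in the 6 libraries.

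**Figure D1:**
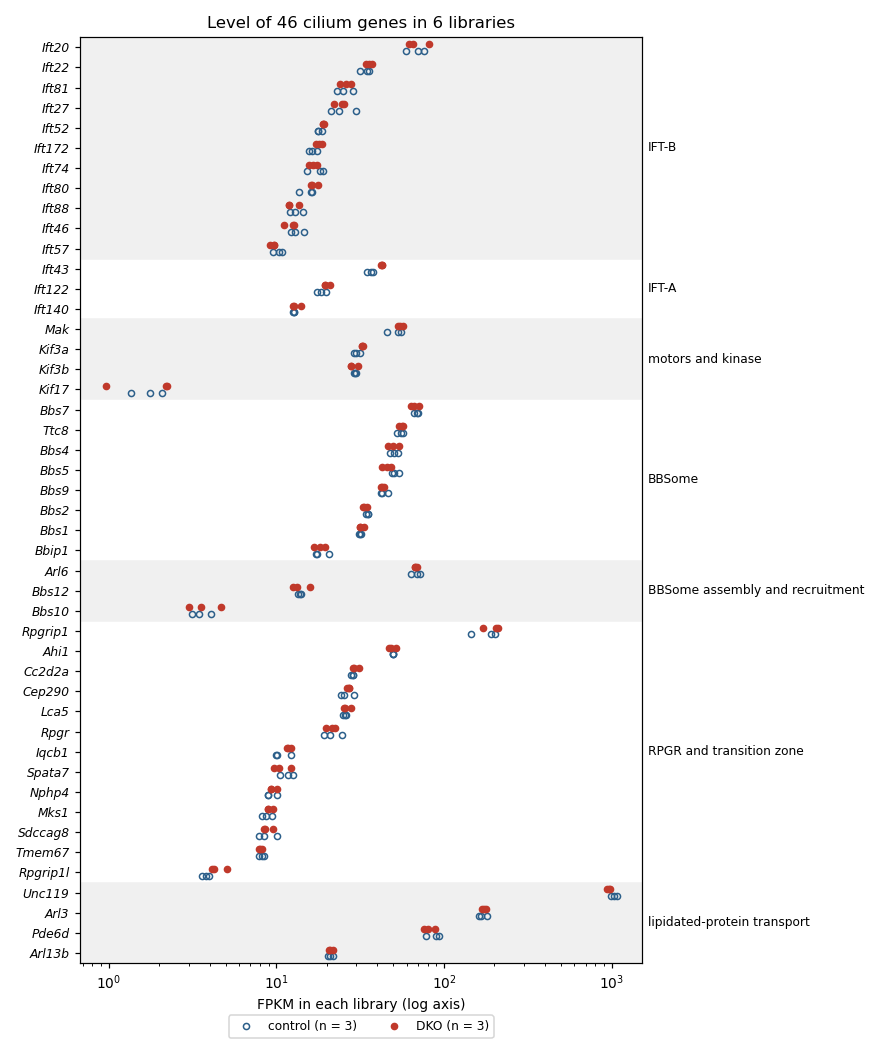
FPKM of the 46 cilium genes in each of 6 libraries on a log axis, grouped by role, with filled points for the 3 libraries labelled DKO and open points for the 3 labelled control. Levels ran from 1.76 FPKM for Kif17 to 996 FPKM for Unc119 (means of 6), and Kif17, with 0.961 FPKM in DKO replicate 1, shows the widest scatter for its level.

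The gene of highest level was Unc119, a carrier of lipidated proteins. Unc119, which binds the acylated end of the transducin alpha subunit and moves it within the photoreceptor (chr11:78343482-78349164), measured 932, 969 and 975 FPKM in the libraries labelled DKO and 1031, 996 and 1075 FPKM in the libraries labelled control. All 3 DKO values lay below all 3 control values, with means of 958 ± 23.3 and 1034 ± 39.6 FPKM (SD, n = 3 each). Its level was above 99.9% of the tested rows. The ratio of Unc119 to Unc119b, a related carrier outside the 46, was 68.7 to 88.4 in the 6 libraries.

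Arl3, the GTPase that releases cargo from these carriers inside the cilium (chr19:46531096-46573198), measured 173, 177 and 168 FPKM under DKO and 166, 162 and 182 FPKM under control, with overlapping groups. Pde6d, the carrier of prenylated proteins such as rod phosphodiesterase subunits (chr1:86542994-86582629), measured 88.0, 80.4 and 75.6 FPKM under DKO and 93.1, 78.3 and 89.2 FPKM under control. The groups of Pde6d overlapped too. Arl13b, the ciliary membrane GTPase that activates Arl3, was lower than both at 20.2 to 21.9 FPKM, and no library of it came near the values of Pde6d.

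Among RPGR and transition zone genes, Rpgrip1 stood far above its relatives. Rpgrip1, which anchors RPGR at the connecting cilium (chr14:52110704-52163546), measured 205, 172 and 211 FPKM under DKO and 145, 192 and 202 FPKM under control. Control replicate 1 was the lowest library, and the groups overlapped. Exons of Rpgrip1 overlap those of Supt16 (83.5 FPKM) on the opposite strand over up to 986 bases, and the strand setting of the counting is not given in the sources used here. Rpgrip1l, its relative at the transition zone of many cell types (chr8:91217030-91313262), lay at 3.62 to 5.10 FPKM. The ratio of Rpgrip1 to Rpgrip1l was 43.8 ± 6.15 in the libraries labelled DKO and 47.5 ± 9.80 in those labelled control (SD, n = 3 each).

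The other 11 genes of this group fell into a middle and a low tier. Ahi1 lay at 47.0 to 51.5 FPKM. Cc2d2a, a transition zone membrane-tether protein, lay at 28.1 to 31.0 FPKM, Cep290, the large protein that links microtubules to the membrane there, at 24.3 to 29.2, Lca5, which encodes lebercilin, at 24.99 to 27.7, and Rpgr, a regulator found with Rpgrip1, at 19.4 to 24.7. Rpgr has a photoreceptor isoform with its own terminal exon, which 1 value per gene cannot separate from the others. Exons of Cep290 overlap 4930430F08Rik on the opposite strand (11.8 FPKM, up to 881 bases). Lower means were found for Iqcb1 (11.3 FPKM), Spata7 (11.2), Nphp4 (9.42), Mks1 (8.99), Sdccag8 (8.80) and Tmem67 (8.10), the last a transmembrane receptor-like protein of the transition zone.

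The 8 BBSome subunits lay within 3.69-fold of each other. Bbs7 was the highest, with 66.5, 63.9 and 70.6 FPKM under DKO and 66.2, 69.2 and 69.6 FPKM under control, and Ttc8 followed with 55.8, 53.6 and 57.0 against 55.1, 52.4 and 56.8 FPKM. Neither gene separated the groups. Bbs4 (50.3 FPKM, mean of 6), Bbs5 (48.3), Bbs9 (43.2), Bbs2 (34.2) and Bbs1 (31.9) came next, and the small subunit Bbip1 was the lowest at 18.3 FPKM. Bbs1 and Bbs2 were the steadiest members over the 6 libraries, with coefficients of variation of 2.21% and 2.51%.

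Genes that assemble and recruit the BBSome were less even. Arl6, the GTPase that brings the BBSome to membranes (chr16:59612949-59639391), measured 67.4, 69.2 and 67.0 FPKM under DKO and 69.1, 63.9 and 72.4 FPKM under control. Its level was thus beside that of Bbs7. The chaperonin-like genes Bbs12 and Bbs10, which help fold the complex, lay at 12.6 to 15.98 and 3.02 to 4.66 FPKM. Bbs10 varied most among these 3, with a coefficient of variation of 16.7%.

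IFT-B subunits, which are needed for outward transport, ranged over 6.96-fold. Ift20, which also works at the Golgi in sorting ciliary membrane proteins (chr11:78536361-78541737), measured 61.5, 65.2 and 81.3 FPKM under DKO and 59.2, 70.2 and 75.5 FPKM under control. Its lowest and highest libraries fell in different groups, and the groups overlapped. Ift22 followed at 34.8 FPKM (mean of 6), then Ift81 (25.7), Ift27 (24.5), Ift52 (18.7), Ift172 (17.2), Ift74 (17.1), Ift80 (16.02), Ift88 (12.8), Ift46 (12.7) and Ift57 (9.89). Neighbours from Ift172 to Ift80 and from Ift88 to Ift46 differed by less than their spread over the libraries. Ift81 and Ift74, which pair to bind tubulin, had means of 25.7 and 17.1 FPKM. In IFT-A, the complex needed for return transport, Ift43 lay at 39.5 FPKM, Ift122 at 19.3 and Ift140 at 12.9.

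Of the motor genes, Kif3a and Kif3b, the motor subunits of heterotrimeric kinesin-2, were nearly equal at 31.4 and 29.1 FPKM, with a ratio of 1.004 to 1.18 in the 6 libraries. Kif17, the homodimeric kinesin-2, was the lowest member, with 0.961, 2.22 and 2.19 FPKM under DKO and 1.77, 2.07 and 1.36 FPKM under control. DKO replicate 1 was the lowest library of Kif17, whose coefficient of variation of 28.8% was the largest of the 46. Kif17 exons overlap those of Sh2d5 (14.2 FPKM) on the same strand over up to 74 bases. The part of Sh2d5 fragments in the values of Kif17 was not tested. Mak, a kinase that limits the length of photoreceptor cilia (chr13:41025008-41079706), measured 52.9 to 57.2 FPKM under DKO and 45.8 to 55.6 FPKM under control.

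Further cilium genes, from a list written by complex and not by value, spanned a wide range. Of these 62 genes, 61 were tested, and their median was 16.4 FPKM against 25.1 FPKM for the 46 members. Tulp1, needed for transport into the outer segment, and Rp1, a microtubule-associated protein of the photoreceptor axoneme, stood out with means of 527 and 312 FPKM. Motile cilium genes of the multiciliated list were lower than both sets: Dnah5, an axonemal dynein, lay at 0.0588 to 0.204 FPKM, although Ccdc39 lay at 12.4 to 15.3 FPKM and Foxj1 at 2.96 to 4.28 FPKM.

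**Figure D2:**
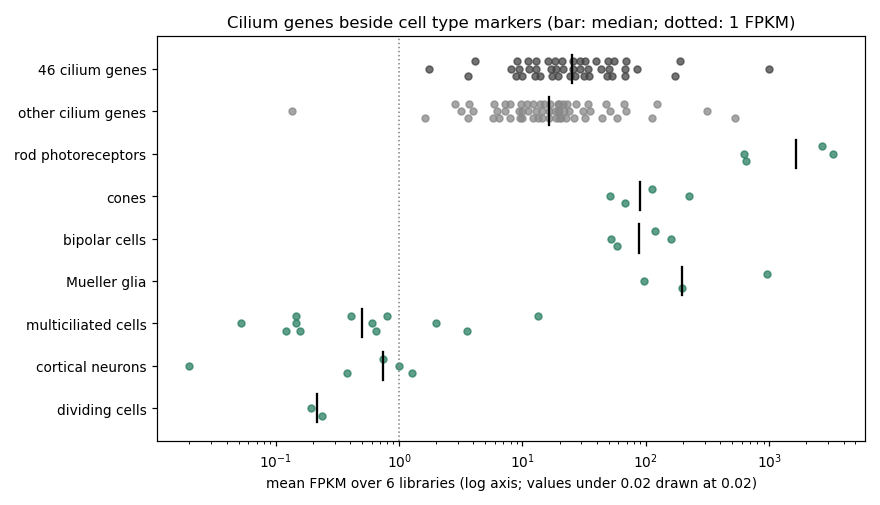
Mean FPKM over 6 libraries on a log axis for the 46 cilium genes, 62 other cilium genes and 7 lists of cell type markers, with 1 point per gene, a bar at the median and values under 0.02 drawn at 0.02. The median was 25.1 FPKM for the 46 genes, 1655 FPKM for 4 rod markers and 0.502 FPKM for 12 markers of multiciliated cells.

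The comparison of DKO with control asked whether losing the labelled miR-124a genes went with a change in ciliary transcripts. No member passed the test: 0 of 46 reached a Benjamini-Hochberg adjusted threshold of 0.05 in limma on log2(FPKM + 1), where 0.0227% of the 13215 tested rows did. Missing the threshold does not show that a level was unchanged. At an unadjusted p under 0.05 there were 2 members, or 4.35%, against 7.88% of tested rows: 1 was higher under DKO, where 3.52% of tested rows were, and 1 was lower, where 4.36% were. The 3 values of one group all lay above those of the other in 7 members, or 15.2%, which is near the 13.9% of tested rows. Of those 7, 5 were higher under DKO (6.96% of tested rows were) and 2 were lower (6.95%). Log2 fold changes lay between -0.16 and 0.22, with 26 above 0 and 20 below. That share of 56.5% stood beside 49.5% over all rows, and the median was 0.016 against -0.0016.

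The intervals give the size of change that the values leave room for. The 95% confidence interval of limma lay within 0.5 on either side of 0 on the log2(FPKM + 1) scale for each of the 46 members, against 88.1% of tested rows. It lay within 0.3 for 36 of the 46, and for 7529 of the 13215 tested rows. For weakly expressed members such as Kif17 and Rpgrip1l the same width on this scale stands for a larger fold in FPKM. Replicates of the members were also close: the median SD within a group was 0.078 on the log2 scale, against 0.10 over tested rows.

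**Figure D3:**
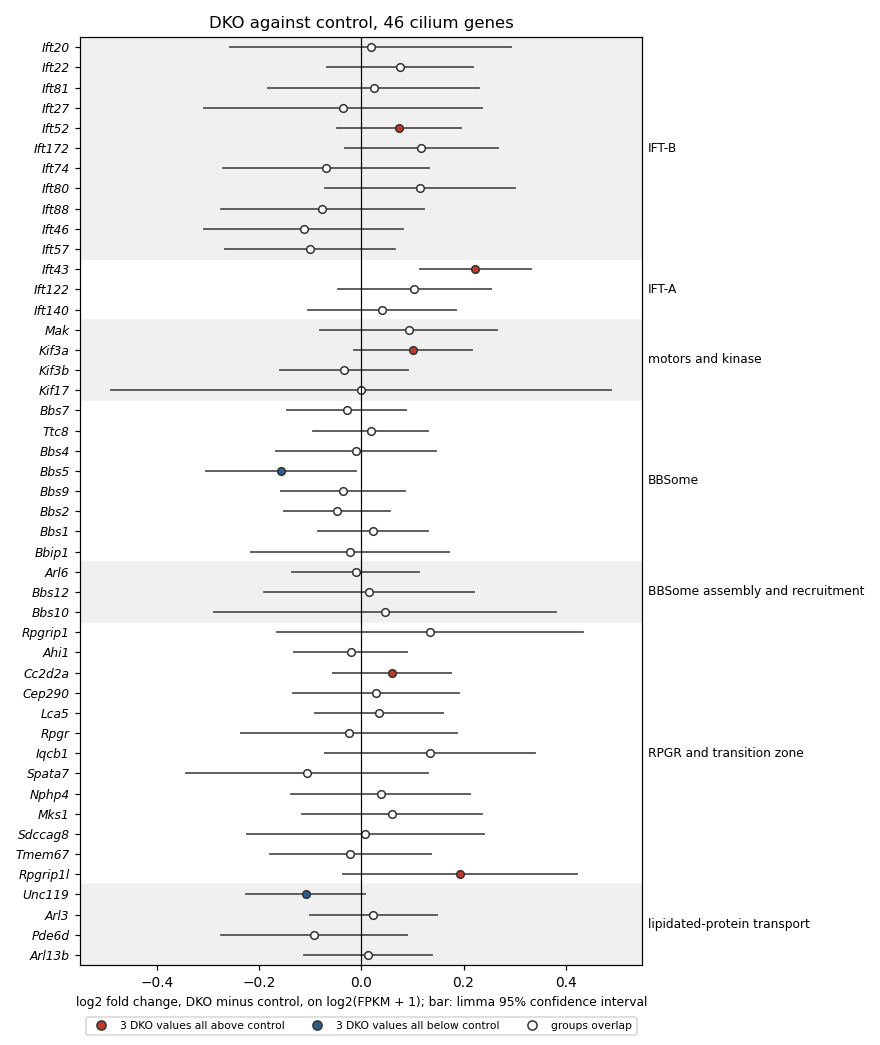
Log2 fold change of DKO minus control on the log2(FPKM + 1) scale for the 46 cilium genes, grouped by role, with the 95% confidence interval from limma as a bar. Filled points mark the 7 genes whose groups did not overlap, and the intervals of Ift43 and Bbs5 were the 2 that did not include 0 before adjustment.

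Ift43 was the member of smallest p. This IFT-A subunit (chr12:86082541-86162459) measured 42.0, 42.8 and 43.0 FPKM in the libraries labelled DKO and 34.9, 37.6 and 36.6 FPKM in those labelled control. Every DKO library was above every control library. This amounted to 0.22 on the log2 scale (95% confidence interval 0.11 to 0.33), and limma with Benjamini-Hochberg adjustment gave adjusted p = 0.304. The other IFT-A members leaned the same way by smaller amounts. Ift122, with 21.0, 19.4 and 19.6 against 17.4, 19.7 and 18.6 FPKM, had a log2 fold change of 0.10 and an adjusted p of 0.758 (limma, Benjamini-Hochberg), and its groups overlapped.

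Bbs5, a BBSome subunit that binds phosphoinositides (chr2:69647171-69667571), was the other member with a small p. It measured 42.42, 48.64 and 46.003 FPKM under DKO and 50.44, 48.72 and 53.82 FPKM under control. The groups did not overlap, but the highest DKO library and the lowest control library were almost equal. The log2 fold change was -0.16, with a standard error of 0.063 and an adjusted p of 0.604 (limma, Benjamini-Hochberg). The other 7 BBSome subunits overlapped between the groups, with 2 of them above 0 and 5 below.

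Bbs5, Ift52 and Kif3b are the 3 members on chromosome 2, where 19.0% of 1007 tested rows did not overlap between the groups. Bbs5 was lower and Ift52 higher without overlap, and Kif3b overlapped. No member on chromosomes 14 or 3 lay within 5 Mb of the loci that the labels name: the nearest were Ift88, 7.07 Mb from the miR-124a-1 host gene, and Bbs7, 18.8 Mb from that of miR-124a-2.

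Unc119 had a log2 fold change of -0.11, with a standard error of 0.050 and an adjusted p of 0.660 (limma, Benjamini-Hochberg), with the values given above. Rod markers were also on the lower side: 4 of 4 had a log2 fold change below 0, as did 6678 of 13215 tested rows. They ran from -0.13 for Nrl to -0.0062 for Gnat1. The markers' summed level was 6684 to 7265 FPKM under DKO and 6949 to 7662 FPKM under control. Other photoreceptor genes, picked after their values were seen, were mixed in sign. Log2 fold changes were above 0 for Rpgrip1 (0.13), Mak (0.093) and Rp1 (0.0013), and below 0 for Tulp1 (-0.0066). The confidence interval from limma included 0 for each of these genes, so their direction is not settled. The part of rod content in the values of Unc119 was not tested, and in bulk tissue fewer cells of a type and less RNA per cell cannot be told apart.

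Kif3a measured 32.3, 32.4 and 32.8 FPKM under DKO and 29.9, 29.1 and 31.7 FPKM under control. Its groups did not overlap, and its log2 fold change was 0.10, with a standard error of 0.050 and an adjusted p of 0.684 (limma, Benjamini-Hochberg). Its partner Kif3b measured 28.01, 30.6 and 27.7 against 29.6, 29.0 and 29.7 FPKM, with overlap. Rpgrip1l measured 5.10, 4.26 and 4.14 FPKM under DKO and 3.95, 3.83 and 3.62 FPKM under control, without overlap. DKO replicate 1 was its highest library, and the log2 fold change was 0.19, with a standard error of 0.099 and an adjusted p of 0.698 (limma, Benjamini-Hochberg).

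Within IFT-B the members of smallest p did not share a direction. Ift172, the largest subunit, measured 17.1, 17.9 and 18.8 FPKM under DKO and 15.6, 17.5 and 16.3 FPKM under control, a log2 fold change of 0.12 with overlapping groups. Ift80, with 17.6, 16.3 and 16.04 against 16.4, 16.1 and 13.7 FPKM, had 0.11 and overlapped. Ift52, with 19.1, 19.1 and 19.3 against 17.8, 17.8 and 18.8 FPKM, had 0.074 and did not overlap. On the other side, Ift57, with 9.66, 9.13 and 9.74 against 10.4, 9.56 and 10.8 FPKM, had a log2 fold change of -0.10. Ift46, with 12.6, 12.7 and 11.2 against 12.9, 14.6 and 12.3 FPKM, had -0.11, and both of these overlapped. These 5 genes had adjusted p of 0.724 to 0.780 in limma with Benjamini-Hochberg adjustment.

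Iqcb1, a partner of Cep290 whose human counterpart is mutated in a syndrome of kidney and retina, measured 12.2, 11.5 and 11.8 FPKM under DKO and 9.91, 10.04 and 12.3 FPKM under control. Control replicate 3 was its highest library, so the groups overlapped, and its log2 fold change was 0.13 and an adjusted p of 0.768 (limma, Benjamini-Hochberg). The remaining member without overlap was Cc2d2a, with 31.0, 28.7 and 29.3 against 28.5, 28.6 and 28.1 FPKM. Its lowest DKO library and highest control library differed by less than the SD of either group (1.21 and 0.290 FPKM).

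**Figure D4:**
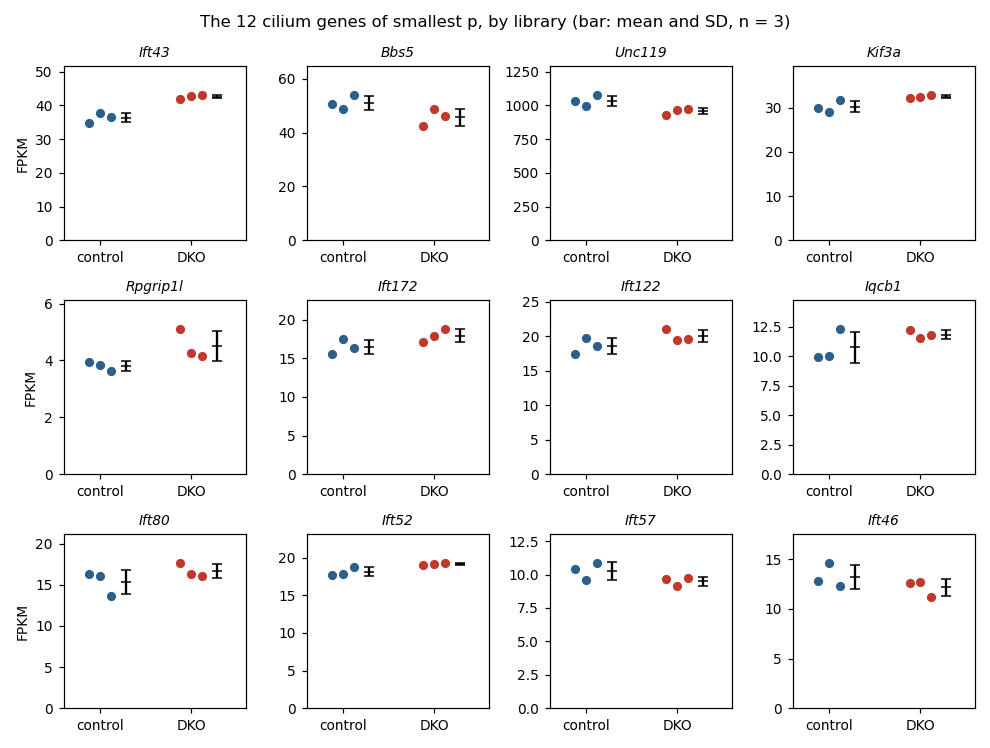
FPKM in each library of the 12 cilium genes of smallest p, with the 3 control libraries left and the 3 DKO libraries right in each panel, axes starting at 0, and a bar for mean and SD. Ift43 shows 34.9 to 37.6 FPKM under control and 42.0 to 43.0 FPKM under DKO, and Iqcb1 shows overlap through control replicate 3.

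The highest and lowest values of the members were spread unevenly over the libraries. The highest value lay in control replicate 3 for 16 members, in DKO replicates 1 and 3 for 11 each, and in control replicates 1 and 2 for 2 each. The library with the lowest value was control replicate 1 for 14. Relative to each gene's mean, the median member deviated by 0.029 in control replicate 3 and by -0.034 in control replicate 2 on the log2 scale, and by less than 0.011 in size in the other 4 libraries. The median over all tested rows was 0.0015 in control replicate 3 and 0.0010 in control replicate 2.

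The other cilium genes did not pass either. Of 61 tested, 0 had an adjusted p past the threshold in limma, where 0.0227% of tested rows did. In the same fit 5 had an unadjusted p under 0.05, or 8.20% against 7.88% of tested rows. In this list 46 of 61 log2 fold changes were above 0, or 75.4% against 49.5% of tested rows, with a median of 0.046. The 3 tested markers of multiciliated cells were above 0 as well, from 0.018 for Ccdc39 to 0.29 for Foxj1. The other 9, all under 1 FPKM, were mixed: Rsph1, Rsph4a and Spag6l had lower means under DKO and the rest higher. All 12 summed to 22.1 to 24.2 FPKM under DKO and 19.6 to 23.4 FPKM under control, and Ccdc39 alone had a mean of 13.4 FPKM. The part of multiciliated cells in the lean of the list was not tested. The pair of smallest p was Dync2li1, a light intermediate chain of the dynein-2 return motor, and Arl2bp, an effector of the GTPases Arl2 and Arl3. Dync2li1 measured 23.3, 23.7 and 25.5 FPKM under DKO and 22.0, 20.4 and 20.0 FPKM under control, without overlap (log2 fold change 0.20; adjusted p = 0.499 by limma and Benjamini-Hochberg). Arl2bp measured 59.4, 67.5 and 67.1 against 72.8, 69.9 and 75.04 FPKM, also without overlap (log2 fold change -0.17; adjusted p = 0.584 by limma and Benjamini-Hochberg).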

How the data were processed

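For every library the authors deposited FPKM values by gene symbol, per the file headers. TopHat2 2.1.1, Bowtie2, Cuffdiff 2.2.1 and the mm10 build were used per the submitters' processing notes. Which annotation, strand setting and scaling Cuffdiff used is not given in the sources used here. Members and gene lists were chosen with earlier results of these data known. The 13215 rows whose mean over the libraries reached 1 FPKM were transformed to log2(FPKM + 1) and compared by limma 3.58.1, run in R 4.3.3 (eBayes with a trend, DKO minus control, Benjamini-Hochberg adjustment over all tested rows, threshold 0.05). With that pseudocount, changes of weakly expressed genes come out too small. The fit was tested on simulated data. Log2 fold changes are printed for the 12 members of smallest p, and values by library also for the 8 of highest level. Kif3b, Kif17, Ift140 and Cc2d2a were added after their values were seen. Log2 fold changes of Rpgrip1, Mak, Tulp1, Rp1, Nrl, Gnat1, Ccdc39 and Foxj1 were also printed after their values were seen. The list of other cilium genes names the 2 of smallest p, and Tulp1 and Rp1 were chosen after their values were seen. A further rod marker is not reported here. Positions come from GENCODE M21 (GRCm38). Motifs were searched in Python 3.11.15 on both strands of RefSeq promoters and on the transcript strand of 3' UTRs. Alternatives were pseudocounts, filters, scalings, short RNA rows left out, a replicate block, moderation, library weights and each library left out.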

Additional observations from a re-analysis of the deposited data

How the results depend on the processing

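In limma, 0 members and 0 other cilium genes passed in each of the 17 alternatives, where 0.00757% to 0.0304% of all rows did. The 12 members of smallest p kept their direction and missed the adjusted threshold in each alternative that tested them, with Ift43 between 0.20 and 0.25 (limma, Benjamini-Hochberg adjusted p 0.199 to 0.764). Leaving out 1 library moved 6 of the others by over 1.5 times on the log2 scale. Rpgrip1l came to 0.12 without DKO replicate 1, Ift122 to 0.061 without control replicate 1 and Ift57 to -0.063 without control replicate 3. Iqcb1 came to 0.084 without control replicate 1 and 0.23 without control replicate 3. Ift80 came to 0.075 without DKO replicate 1 and 0.037 without control replicate 3, and Ift46 to -0.056 without DKO replicate 3 and -0.046 without control replicate 2. Members with an unadjusted p under 0.05 numbered 1 to 3 without single libraries, where 5.95% to 7.66% of all rows had one, and 1 without DKO replicate 1, DKO replicate 3 or control replicate 1. Members without overlap numbered 9 to 13 in the same fits, where fewer samples make separation easier and 22% to 25.8% of all rows did not overlap. They were 12, 11, 13 and 13 without DKO replicate 1, DKO replicate 2, control replicate 2 and control replicate 3, beside 23.6%, 22%, 24.2% and 22.5% of all rows. Members above 0 numbered 21 to 29 in the 17 alternatives, where 49% to 56.4% of all rows were above 0. Without short RNA rows there were 29 such members, beside that highest share of 56.4%. The median member turned to -0.0013 without DKO replicate 3 and to -0.00086 without control replicate 1. With the replicate block 0 members passed and 2 had an unadjusted p under 0.05, where 9.62% of all rows had one. Same-numbered libraries deviated together with correlations of only 0.072, 0.0063 and 0.10, so the numbers were not taken as pairs. FPKM without read totals leaves counting error unknown, and Kif17, Bbs10 and Rpgrip1l had the lowest levels of the members.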
